A study of Mus musculus with 4 samples.

Results

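Centrocytes (CC) are the light zone cells of the germinal center (GC), the structure in which activated B cells mutate their antibody genes and are selected. They derive from dividing dark zone centroblasts (CB), take up antigen from follicular dendritic cells and present it on MHC class II to follicular helper T cells. Those that receive help through CD40 and cytokines re-enter the cycle or leave the GC, and the others die by apoptosis. Here CC were the cells that carry this name in the deposited annotation of GC B cells, matched to the count matrices by library and barcode. They numbered 2444 of 9804 annotated cells, among 39009 barcodes in all, and WT gave 382 of them, C 515, K 611 and CK 936.

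The cells were splenic B220+IgD- cells, enriched on B220 beads and sorted 10 days after injection of sheep red blood cells (SRBC), which elicit GC, from 8-week-old female mice of C57BL/6J background. All mice carried the Cγ1-cre allele, which is active in GC B cells once they transcribe the γ1 constant region. WT mice had no floxed gene, C mice lost 1 allele of Crebbp, K mice lost 1 allele of Kmt2d, and CK mice lost 1 allele of each. CREBBP acetylates enhancer histones and KMT2D methylates them. There was 1 mouse, and 1 library, for every genotype. A genotype therefore cannot be told apart from its mouse, sort and library, and no test was run. The 95% intervals given take in the error of counting and nothing else.

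The libraries held 33270825 to 39803865 UMIs (tags that mark single captured transcripts). CC had a median of 4741, 3498, 3811 and 2670 UMIs per cell in WT, C, K and CK, with 1746, 1411, 1410 and 1182 genes. These depths lay below those of CB, at 5502, 4936, 5526 and 4604 UMIs, and above those of prememory cells, at 3299, 2650, 2720 and 1991 UMIs. Scrublet called 2.88, 7.18, 2.29 and 1.71% of CC doublets in the same order, and these cells were kept unless stated. Only 1 CC barcode was shared by libraries (K and CK), against 143 shared among all barcodes. Levels are sums of UMIs over cells scaled to a common total (CPM, counts per 1e6), and ratios are log2 ratios of CPM. The median of a gene list takes, in each library, the members with at least 20 UMIs over both groups compared. In contrasts within libraries it can cover more members than those tested, which needed 20 UMIs in every library. A row of 4 values always gives WT first, then C, K and CK.

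The label was first set against 4 markers. Cd83, a surface protein that stabilises MHC class II, was at 421, 466, 572 and 526 CPM in CC and at 60.3, 81.3, 86.7 and 79.0 CPM in CB. Cd86, a costimulatory ligand for T cells, was at 149, 131, 136 and 119 CPM in CC against 49.9, 51.0, 54.9 and 40.1 CPM in CB. Slamf1, a receptor in contacts of B and T cells, was at 142, 142, 108 and 134 CPM in CC against 32.2, 29.8, 29.3 and 31.2 CPM in CB. All 4 markers, Lmo2 included, were higher in CC than in early CB, CB, transitioning and prememory cells of each library. Lmo2, a GC transcription cofactor, ranged from 133 to 167 CPM in CC and from 65.3 to 75.05 CPM in transitioning cells, the intermediates between CB and CC. In barcodes of T cells from the same sorts, Cd83 was at 20.6 to 25.3 CPM, against which the levels in B cells can be read. The deposited clustering placed 89.5% (K) to 95.9% (C) of CC in a single cluster.

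**Figure D1:**
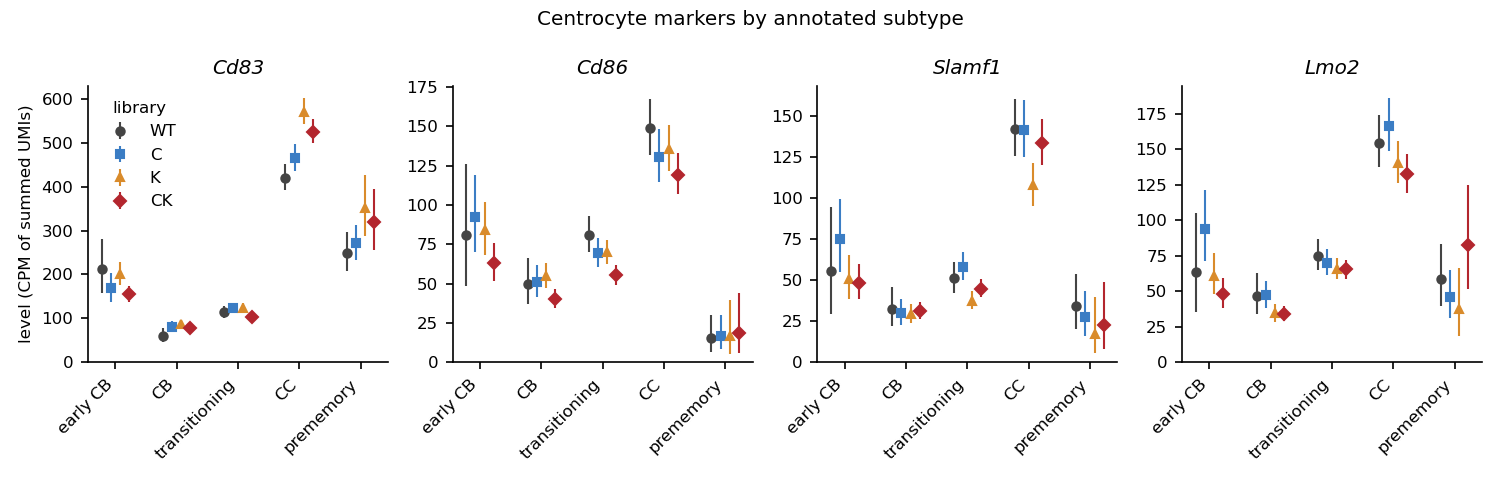
Levels of Cd83, Cd86, Slamf1 and Lmo2 in CPM (y axes, from 0) by annotated subtype (x axis), with 1 point per library and exact Poisson 95% intervals. In each library the CC point lies above those of the other subtypes shown, with Cd83 between 421 and 572 CPM.

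CC held far fewer mitotic transcripts than CB, and more transcripts of the NF-kB, immediate early and resting B cell lists. Of 7674 genes with at least 20 UMIs over both subtypes in each library, 153 (1.99%) were at least 2-fold higher in CC in every library and 359 (4.68%) at least 2-fold lower. The annotation was itself made from these transcripts, so the contrast between subtypes is a description. All 17 genes of a G2M list were among the lower ones, with list medians of -4.37, -5.15, -4.95 and -4.91 (log2) beside -0.13, -0.07, -0.09 and -0.02 for all genes. Ccna2, the cyclin of S phase and G2, was at 3.83, 3.19, 6.79 and 5.91 CPM in CC and 254, 291, 313 and 357 CPM in CB. Mki67, a marker of cycling cells, was at 51.9, 56.3, 26.4 and 58.3 CPM against 853, 924, 391 and 961 CPM. Cenpf, a kinetochore protein, had log2 ratios of -6.17, -5.86, -6.03 and -5.51. Other genes among the 10 lowest were Cep55, Ckap2l, Kif20a, Plk1, Hmmr, Hist1h2ap, Cdc20 and Cdkn3, which act in mitosis or, for Hist1h2ap, encode a histone.

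The highest ratio over CB was that of Il4i1, a secreted L-amino acid oxidase, at 405, 518, 421 and 458 CPM in CC and 11.4, 28.4, 23.0 and 21.9 CPM in CB. Fcer2a, the low-affinity IgE receptor CD23, was at 246, 278, 137 and 108 CPM against 27.0, 49.1, 12.5 and 15.3 CPM. CC of K and CK held less Fcer2a than CC of WT and C, while the ratio over CB was at least 2.50 in each library. Ncf1, a subunit of the phagocyte NADPH oxidase, was at 81.5, 65.3, 61.9 and 51.3 CPM against 24.9, 16.4, 10.5 and 9.55 CPM. The 10 highest also held Trim7, a ubiquitin ligase, Bcl2a1b, an anti-apoptotic member of a family of close copies whose counts are uncertain, Slfn2, and Tspan32. Fcer2a is also on a list of 13 prememory and resting B cell genes. Of its 11 tested genes, Ccr6, Cd38, Klf2, Hhex and Fcer2a were at least 2-fold higher in CC than in CB and none lower, with list medians of 1.49, 1.503, 1.71 and 0.95.

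Of 16 tested members of a CD40 and NF-kB list, 10 were at least 2-fold higher than in CB and none lower. Nfkbia, the inhibitor that NF-kB induces against itself, was at 249.8, 267, 229 and 291 CPM in CC and 79.0, 106, 101 and 94.9 CPM in CB. Nfkb2, the precursor of the p52 subunit, was at 37.7, 28.7, 37.2 and 30.6 CPM against 10.4, 10.6, 12.8 and 10.2 CPM. Relb, the partner of p52, and Birc3, an apoptosis inhibitor, were on the same side, with log2 ratios of 1.44, 1.64, 1.02 and 1.85 and of 1.11, 1.38, 1.15 and 1.72. List medians were 1.27, 1.36, 1.35 and 1.60. The promoters of Nfkbia (chr12:55492598-55492897, minus strand) and Nfkb2 (chr19:46304487-46304786, plus strand; the first of its start sites with a match) are shown because each holds the kappaB motif (GGG, any 2 bases, then TTTCC), searched on both strands and in capitals. They span 250 bases before to 50 after the start in RefSeq on GRCm38.p6.
Nfkbia: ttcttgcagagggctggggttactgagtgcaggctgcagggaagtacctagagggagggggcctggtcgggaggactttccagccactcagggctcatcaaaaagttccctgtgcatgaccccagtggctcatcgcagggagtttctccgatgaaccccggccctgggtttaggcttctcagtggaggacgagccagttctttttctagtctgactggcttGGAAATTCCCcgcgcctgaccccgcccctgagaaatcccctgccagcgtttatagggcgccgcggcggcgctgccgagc
Nfkb2: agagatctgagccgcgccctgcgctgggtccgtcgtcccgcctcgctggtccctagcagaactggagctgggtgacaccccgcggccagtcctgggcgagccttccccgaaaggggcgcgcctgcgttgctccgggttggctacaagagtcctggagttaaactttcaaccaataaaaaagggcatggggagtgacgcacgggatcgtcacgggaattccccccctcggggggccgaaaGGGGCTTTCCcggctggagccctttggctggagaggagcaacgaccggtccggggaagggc
Of 27025 genes with a promoter in that table, 1.89% held the motif. Among the 153 genes higher in CC only 118 (77.1%) could be matched to the table, so a share over them is void. A match is a description of letters and not a site.

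Transcripts of the immediate early response, which follow antigen receptor and CD40 signals within minutes, were low in number and higher in CC. Of 5 tested genes of this list, Ier2, Egr1 and Egr3 were past 2-fold. List medians were 1.87, 1.85, 1.95 and 2.21, over 6, 5, 8 and 6 measured genes. Ier2 was at 42.6, 56.3, 51.1 and 52.4 CPM in CC and 9.35, 11.1, 11.1 and 12.5 CPM in CB. Egr1 was at 45.9, 51.5, 43.5 and 48.7 CPM against 14.5, 23.1, 7.96 and 9.55 CPM, which leaves the groups apart in each library. Among 9 tested positive selection genes, Myc and Ccnd2 were past 2-fold. Myc, the factor that licenses re-entry into the cycle, was at 18.6, 16.5, 36.8 and 27.0 CPM in CC and 5.20, 5.29, 4.83 and 3.61 CPM in CB, from 34, 31, 92 and 73 UMIs in CC.

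MHC class II transcripts were the most abundant of the listed groups in CC. The 11 listed genes summed to 52603, 55056, 53951 and 51810.4 CPM in CC and 28432, 28009.5, 29823 and 24656 CPM in CB. H2-Aa and H2-Oa passed 2-fold in every library, the other 9 did not, and list medians were 0.84, 0.89, 0.77 and 0.88. H2-Aa, an alpha chain of the presenting molecule, was at 5361, 5376, 5659 and 4829.8 CPM in CC, and H2-Oa, a chain of the peptide loading regulator H2-O, at 314, 336, 363 and 294 CPM. Ciita, the coactivator of these genes, had log2 ratios of 0.96, 1.19, 1.13 and 1.29. Of 12 tested genes for contacts with T cells, Icosl, Cd86, Slamf1, Il21r and Tnfrsf13c were past 2-fold, and Il21r, the receptor for the helper cytokine IL-21, was at 205, 180.5, 183 and 181 CPM in CC. Among apoptosis genes, Birc3, Bcl2a1b and Bcl2a1d of the NF-kB list were higher, as counted above, while none of 12 tested genes of a separate list (Bcl2, Mcl1, Bax and others) passed 2-fold in one direction in every library.

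Bcl6, the repressor that GC B cells depend on, was at like levels in CC and CB and lower in prememory cells. It was at 62.9, 63.2, 42.3 and 55.7 CPM in CC, 69.6, 57.7, 36.4 and 48.4 CPM in CB and 3.79, 10.6, 6.76 and 11.3 CPM in prememory cells. The prememory levels rest on few UMIs. The dark zone chemokine receptor Cxcr4 had log2 ratios over CB of -1.14, -0.98, -1.12 and -1.11, with 32, 33, 34 and 34 UMIs in CC. Of the 7 genes of a dark zone list that holds Cxcr4, Polh and Hmmr were at least 2-fold lower in every library and none higher. List medians were -0.39, -0.36, -0.56 and -0.44, and 2 of the 7 genes lay above 0 in each library.

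Against transitioning cells, a 1.5-fold limit was used. Of 8220 genes, 241 (2.93%) were higher in CC in every library and 327 (3.98%) lower. Of the 16 S phase genes, all tested, 16 were lower, with list medians of -1.83, -1.93, -1.79 and -1.94. Of 16 tested NF-kB genes 14 were higher, with medians of 0.92, 1.36, 1.49 and 1.44. The 5 highest ratios were those of Il4i1, Fcer2a, Bcl2a1b, Cd83 and Nfkbia, and the 5 lowest those of Ccnb2, Pclaf, Stmn1, Lig1 and Rgcc, of which Ccnb2, Pclaf and Lig1 act in division or DNA replication. Nfkbia was at 76.3, 80.0, 59.9 and 73.2 CPM in transitioning cells, so its level in CC was the higher in every library.

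S phase genes were also looked at for an E2F motif. Mcm3, a subunit of the replicative helicase, was at 58.0, 69.5, 69.1 and 83.8 CPM in CC and 259, 315, 320.3 and 375 CPM in transitioning cells. Cdc6, which loads that helicase on origins, was at 2.19, 2.12, 1.998 and 2.58 CPM in CC against 15.5, 27.4, 29.7 and 44.2 CPM. Their promoters (Mcm3, chr1:20820263-20820562, minus strand; Cdc6, chr11:98907901-98908200, plus strand) are shown for the E2F motif TTTNNCGC, on either strand and in capitals, of which Mcm3 holds 2.
Mcm3: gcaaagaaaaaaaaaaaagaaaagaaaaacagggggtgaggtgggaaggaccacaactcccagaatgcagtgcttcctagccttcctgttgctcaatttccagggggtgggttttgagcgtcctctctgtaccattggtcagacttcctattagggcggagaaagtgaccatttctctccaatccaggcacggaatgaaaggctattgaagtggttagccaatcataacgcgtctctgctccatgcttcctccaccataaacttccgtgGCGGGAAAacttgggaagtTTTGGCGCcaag
Cdc6: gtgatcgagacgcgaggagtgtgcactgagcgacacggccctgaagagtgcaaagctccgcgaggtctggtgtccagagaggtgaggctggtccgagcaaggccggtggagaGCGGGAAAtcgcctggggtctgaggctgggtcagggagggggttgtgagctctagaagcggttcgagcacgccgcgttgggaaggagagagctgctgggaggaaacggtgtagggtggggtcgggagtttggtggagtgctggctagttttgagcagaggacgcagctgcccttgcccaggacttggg
The motif stood in 8 of 14 matched S phase promoters (57.1%), in 1 of 16 matched G2M promoters (6.25%) and in 5.93% of all promoters in the table. Among the 7674 genes compared between CC and CB it stood in 676 of 6102 matched promoters (11.1%), a background that falls just short of the matching asked for, at 79.5% of genes.

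Against prememory cells, which had 93 (K) to 225 (C) cells, CC held more GC identity transcripts and had lower medians for the NF-kB and immediate early lists. Of 6823 genes, 210 (3.08%) were at least 2-fold higher in CC in every library and 234 (3.43%) lower. S1pr2, the receptor that confines B cells to the GC, was at 167, 171, 145 and 161 CPM in CC. In prememory cells S1pr2 was at 5.68, 3.04, 3.38 and 0 CPM, levels that rest on few UMIs. The 0 UMIs in CK were set at 3 UMIs, or 11.3 CPM, for ratios. Mef2b, an activator of Bcl6, was at 563, 673, 569 and 673 CPM against 17.0, 25.9, 33.8 and 45.04 CPM. In the other direction, Ccr7, which guides cells to the T cell zone, was at 4.92, 11.7, 2.397 and 2.58 CPM in CC and 92.8, 98.9, 122 and 131 CPM in prememory cells. Plac8, Bcl2 and S100a10 were also among the 10 lowest, and Bcl2, which blocks apoptosis, was at 15.3, 20.7, 10.8 and 9.60 CPM against 208, 190.1, 162 and 169 CPM. Ribosome biogenesis genes, a list chosen after the data were seen, had medians of -1.52, -1.56, -1.05 and -1.31, with 10 of 23 tested genes at least 2-fold lower in CC and none higher. NF-kB medians were -0.33, -0.49, -0.22 and -0.49, and of 15 tested genes Traf1 was at least 2-fold higher and Tnfaip3 lower in CC. Immediate early medians were -0.74, -1.14, -0.60 and -0.55, with Ier2 and Egr3 of 6 tested genes lower in CC and none higher. The higher levels of the NF-kB and immediate early lists in CC were thus relative to CB and transitioning cells. Positive selection medians over prememory cells were -1.36, -1.55, -0.82 and -1.20. Of 10 tested genes of that list, Ccnd2, Irf4, Nme1 and Ncl were at least 2-fold lower in CC and none higher. All 11 listed genes, Myc included, had ratios below 0 in C and in CK.

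The genes with the highest ratios over prememory cells were not those with the highest over CB. Efnb1, an ephrin ligand in contacts of GC B and T cells, was at 96.8, 81.2, 88.7 and 130.0 CPM in CC, and Apoe, a lipid carrier, at 781, 1069, 843 and 882 CPM. Jchain, which joins IgM and IgA units, was at 725, 930.1, 704 and 679 CPM in CC and 36.0, 28.9, 71.0 and 67.6 CPM in prememory cells. Basp1, Nuggc, H1f0 and Mybl1 were also among the 10 highest, with log2 ratios for Basp1 of 4.21, 4.95, 4.80 and 4.18. Of 14 GC identity genes, 8 were past 2-fold higher in CC (Bcl6, Fas, S1pr2, Gcsam, Rgs13, Mybl1, Mef2b and Basp1) and none lower, and list medians were 3.21, 2.39, 1.91 and 2.39. Ccnd2, the D cyclin of resting and activated B cells, was at 16.4, 12.2, 27.2 and 23.6 CPM in CC and 305, 263, 328 and 327 CPM in prememory cells, and Myb, a progenitor factor, at 4.92, 2.65, 3.196 and 7.01 CPM against 96.5, 79.1, 50.7 and 67.6 CPM. Of the 153 genes higher in CC than in CB, 18 (11.8%) were also among the 210 higher than in prememory cells (8.57% of these). Over all tested genes, 3.08% were higher in CC than in prememory cells and 1.99% higher than in CB, so both shares exceeded those over all genes.

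**Figure D2:**
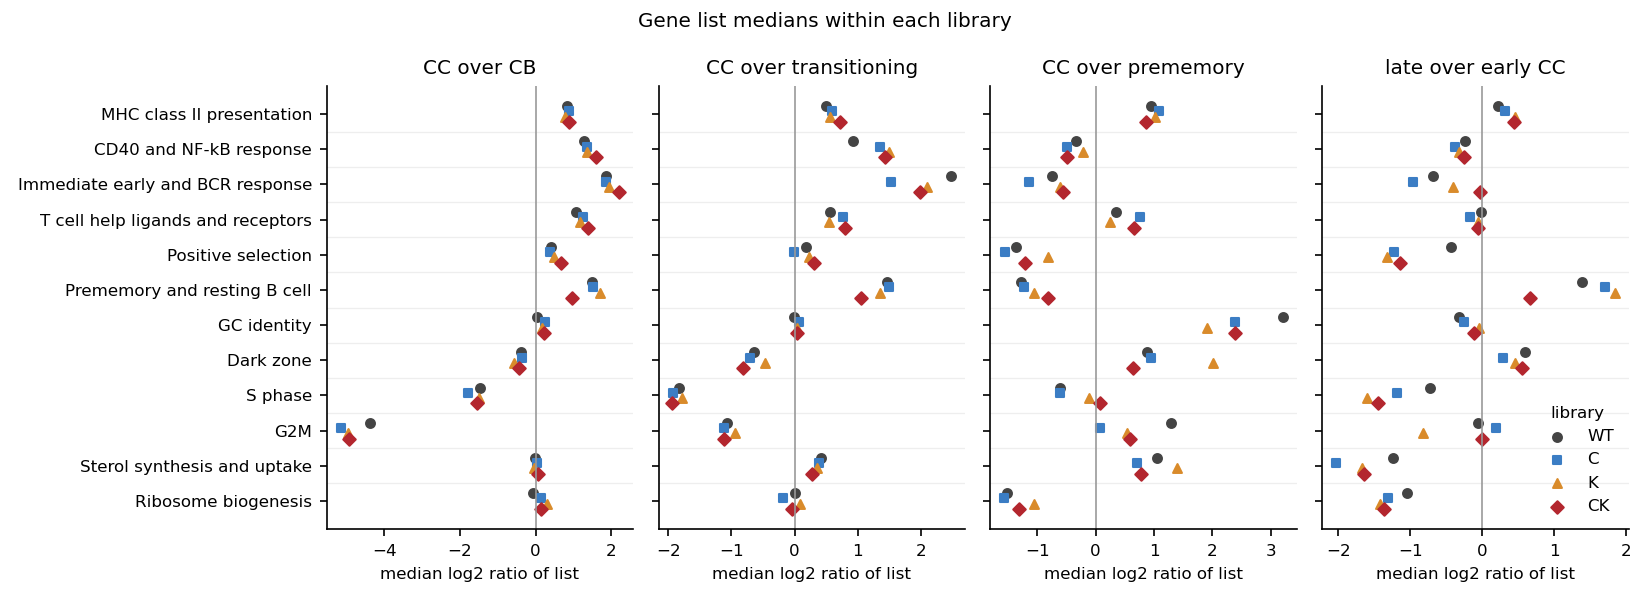
Median log2 ratio of each gene list (rows) within each library (points) for CC over CB, over transitioning and over prememory cells, and for late over early CC in pseudotime order. G2M medians over CB lie between -4.37 and -5.15, and sterol medians between -1.23 and -2.03 in the rightmost panel.

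Some transcripts were higher in CC than in early CB, CB, transitioning and prememory cells. Recycling cells, a further annotated subtype, were left out because there were only 82. Among 2209 genes with at least 50 CPM in CC of each library, 33 (1.49%) led early CB, CB, transitioning and prememory cells by at least 25% in every library. Mxd4, which competes with MYC for its partner MAX, was at 161, 161, 131 and 142 CPM in CC, against 56.3 to 73.5 CPM in transitioning and 30.3 to 45.04 CPM in prememory cells. Pld4, a lysosomal nuclease, was at 171, 143, 128 and 100.1 CPM, and Hvcn1, a proton channel of B cells, at 326, 313, 298 and 278 CPM in CC. Lck, a kinase best known from T cells, was at 143, 140.1, 161 and 163 CPM in CC and 52.0, 46.2, 57.4 and 50.5 CPM in CB. The 9 listed T cell markers summed to 166 to 209.7 CPM in CC and to 8175 to 8852 CPM in T cell barcodes, so Lck made up most of their sum in CC. Leading genes also included Trim7, Casp6, Srpk3, H2-Eb2 and the related Sp140 and A530032D15Rik, whose close copies make the counts of the latter uncertain. The number of leading genes was 59 when WT was left out.

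CC were then ordered by the deposited pseudotime rank, which runs from CB towards prememory cells and was made from the same transcripts, and split in each library into 3 groups of equal size, early, middle and late CC. Early CC held more transcripts of growth: sterol synthesis, ribosome biogenesis and DNA replication. Late CC held more of some transcripts of resting and memory B cells. Of 5211 genes, 84 (1.61%) were at least 1.5-fold higher in late CC in every library and 271 (5.20%) lower. Without WT these counts were 138 and 424. Median depth per cell also differed, at 5499, 4334, 4766 and 3449.5 UMIs in early CC and 4000, 2696, 3095 and 2105 UMIs in late CC.

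Sterol genes, a list chosen after the leading genes were seen, had medians of -1.23, -2.03, -1.67 and -1.64 for late over early CC, beside -0.07, -0.09, -0.14 and -0.09 for all genes. Of its 15 tested genes, 10 were past 1.5-fold lower and none higher. Idi1, an isomerase of the isoprenoid pathway, was at 99.4, 136, 83.5 and 114 CPM in early CC and 21.1, 26.4, 13.4 and 27.6 CPM in late CC. Fdps, which makes farnesyl diphosphate, was at 146, 155, 121 and 121 CPM and then 48.0, 34.5, 34.1 and 30.5 CPM. Msmo1 and Cyp51, 2 demethylation enzymes of the pathway, and Sqle, the epoxidase, were also among the 10 lowest. Summed, the list was at 679.9, 791, 734 and 825 CPM in transitioning cells, 1345, 1518, 1198 and 1335 CPM in early and 621, 467, 523 and 513 CPM in late CC, so early CC exceeded both neighbours in each library. The sterol response element (TCAC, any base, then CCAC) was the last of 3 motifs searched. It stood in 1.44% of all promoters and in 1 of 16 matched sterol promoters, a share that is void because only 72.7% of the 22 genes matched.

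Ribosome biogenesis genes followed the same order. Of 20 tested, 16 were lower in late CC, with medians of -1.05, -1.30, -1.42 and -1.36. Srm, the spermidine synthase, which is not on that list, was at 51.1, 68.7, 87.4 and 93.1 CPM in early, 13.7, 29.8, 26.3 and 24.4 CPM in middle and 1.92, 20.3, 17.8 and 13.1 CPM in late CC. In prememory cells Srm was at 178, 249, 219.6 and 308 CPM, above all 3 groups of CC. Of 11 tested S phase genes 6 were lower in late CC, and Mcm2 was at 55.2, 63.6, 73.8 and 78.4 CPM against 5.76, 14.2, 14.8 and 17.4 CPM. The E2F motif stood in 36 of 224 matched promoters of genes lower in late CC (16.1%) and in 3 of 70 of genes higher (4.29%). The 11.1% above belongs to another set, the genes compared between CC and CB, and no share was taken over the genes tested here. Myc was at 20.7, 20.4, 54.4 and 43.1 CPM in early CC and 7.69, 4.06, 19.3 and 16.0 CPM in late CC, from at most 56 UMIs in a library.

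Of 13 prememory and resting genes 6 could be tested, of which Cd38, Klf2 and Cd55 were at least 1.5-fold higher in late CC and none lower. List medians were 1.38, 1.71, 1.84 and 0.67, and Cd44, an adhesion receptor, lay below 0 in WT, C and K, with ratios of -2.22, -1.96, -0.54 and 0.02, from 4 to 31 UMIs in a group. The largest ratios in this direction were those of Plac8, at 6.90, 43.3, 9.71 and 22.4 CPM in early and 102, 124, 139.5 and 69.8 CPM in late CC, and of Klf2, a factor of quiescent lymphocytes, at 52.5, 77.6, 21.4 and 65.5 and 315, 408, 362 and 455 CPM. Cd38, an ectoenzyme low on mouse GC B cells and high on resting and memory B cells, was at 31.8, 47.1, 30.1 and 49.1 CPM and then 183, 126, 139.5 and 189 CPM. Ighd, the IgD constant region, was at 34.5, 36.9, 14.6 and 30.2 CPM in early and 113, 109.5, 107 and 72.7 CPM in late CC, in cells sorted as IgD-. In prememory cells both were higher than in late CC except for Klf2 in CK, and Klf2 was at 507, 430.4, 473 and 435 CPM and Plac8 at 808, 646, 852 and 646 CPM. Scrublet called 0, 4.07, 0 and 0.962% of early and 6.30, 8.77, 3.94 and 0.962% of late CC doublets. Without these cells, 78 genes were higher and 269 lower. The T cell, myeloid and NK marker sums in late CC were at most 208, 10.4 and 5.81 CPM.

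Other genes among the 10 highest in late CC were spread over cell surface, cytoskeleton and nucleus. Zeb2, a repressor of the zinc finger class, was at 49.7, 31.8, 44.7 and 58.6 CPM in early and 159, 114, 135 and 193 CPM in late CC, and in late CC it was near its 138, 116, 135 and 150.1 CPM in prememory cells. Capg, an actin capping protein, was at 19.3, 22.9, 18.4 and 22.4 CPM in early and 106, 87.2, 138 and 82.8 CPM in late CC. Ly6d, a surface protein of the B lineage, was at 208, 319, 271 and 284 CPM in early and 719, 789, 824 and 658 CPM in late CC, and at 3126, 3078, 3538 and 2792 CPM in prememory cells. Cd2, an adhesion receptor, was at 75.9, 58.5, 80.6 and 53.4 CPM in early and 181, 156, 175 and 157 CPM in late CC and, unlike Ly6d, was below late CC in prememory cells (47.3, 76.0, 122 and 71.3 CPM). Mndal and Cytip made up the 10. Of the 84 genes higher in late CC, 19 (22.6%) were also among the 153 higher in CC than in CB (12.4% of these). Over all tested genes, 1.99% were higher in CC than in CB and 1.61% higher in late CC, so both shares exceeded those over all genes.

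The 4 CC markers had list medians of -0.20, -0.42, -0.06 and -0.13 for late over early CC, with all 4 lower in WT and C and 3 lower in K and CK, and none passed 1.5-fold in every library. Cd83 was at 421, 472, 592 and 519 CPM in early and 396, 465, 576 and 555.2 CPM in late CC. Cd86 had log2 ratios of -0.23, -0.48, -0.22 and -0.48, Slamf1 of -0.17, -0.56, -0.09 and -0.11 and Lmo2 of -1.13, -0.36, 0.35 and -0.15. Nfkbia was lower in late CC, at 199.8, 211, 181 and 243 CPM against 315, 332, 294 and 338 CPM. The MHC class II sum was 48846, 49382, 48076 and 45437 CPM in early and 54394, 60898, 60636 and 58861 CPM in late CC, higher in each library, with H2-Oa and H2-Ob past 1.5-fold.

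**Figure D3:**
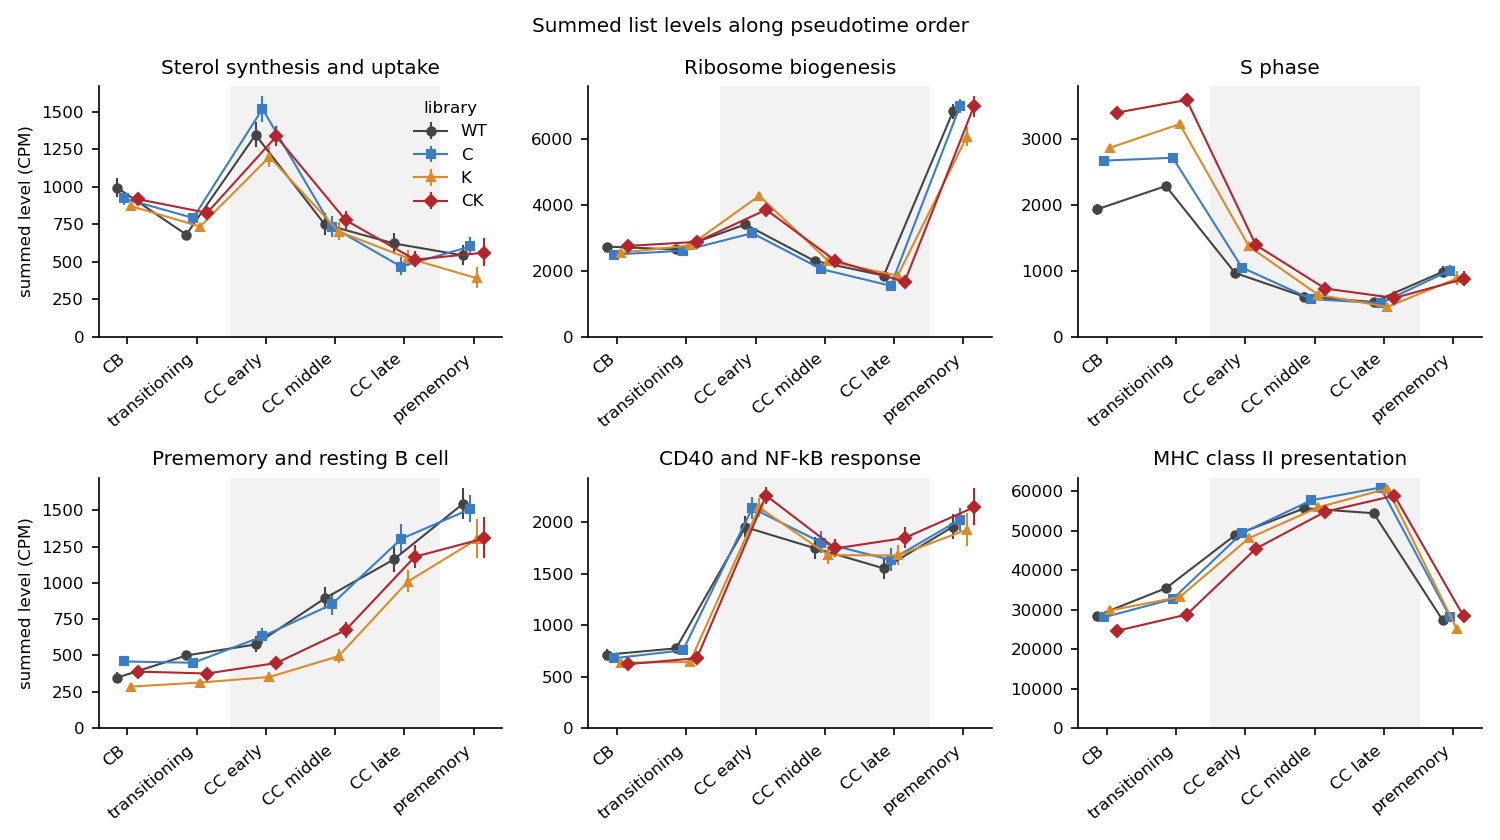
Summed levels in CPM (y axes, from 0) of 6 gene lists in CB, transitioning cells, early, middle and late CC by pseudotime rank (shaded) and prememory cells, 1 line per library with exact Poisson 95% intervals. The sterol sum is highest in early CC and the prememory sum climbs from early to late CC in each library.

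Splice classes were counted separately by the authors. The unspliced share of UMIs, as a median over cells, was 32.8, 33.1, 25.8 and 32.1% in CC and 26.3, 26.9, 20.7 and 25.3% in CB. Within CC it was 29.5, 28.8, 23.5 and 28.4% in early and 36.2, 36.7, 28.8 and 34.9% in late CC. The share was higher in CC than in CB and higher in late than in early CC in each library, and late CC were above prememory cells, at 31.3, 30.1, 25.7 and 29.1%. K lay below the other libraries in each subtype shown. Depth per cell ran the other way along CC, and its part in the share was not tested.

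**Figure D4:**
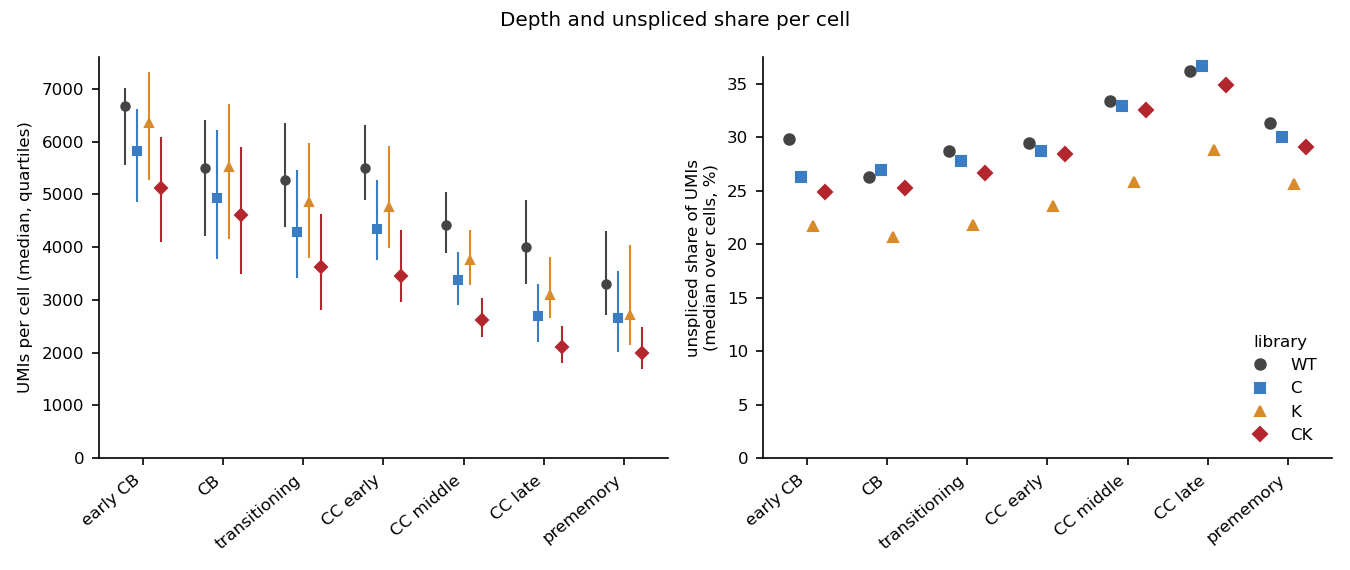
UMIs per cell (left, median with quartiles) and unspliced share of UMIs in percent (right, median over cells) by subtype, with CC split by pseudotime rank, 1 point per library. Median depth is lower, and the unspliced share higher, in late than in early CC of each library.

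The mutant libraries were compared with WT within CC, and all 3 ratios share the WT library. At 2-fold and 20 UMIs, C had 88 genes higher (1.08% of 8161) and 118 lower (1.45%). K had 94 higher (1.13% of 8302) and 718 lower (8.65%), and CK 150 higher (1.76% of 8530) and 127 lower (1.49%). Most of these genes had few counts: with at least 100 UMIs, C had 1 higher and 1 lower, K 7 and 235, and CK 11 and 4. T cell barcodes of the same libraries (1273 from WT, 1666 from C, 1512 from K, 2828 from CK) served as a comparison chosen after the data were seen. Relative to them, K had 129 genes lower in place of 718. With each cell thinned to 2000 UMIs, the calls kept few of the same genes except among those lower in K. They held 6 of the 88 higher and 13 of the 118 lower in C, 15 of 94 and 346 of 718 in K, and 41 of 150 and 34 of 127 in CK. The median of all genes for K over WT was -0.14 in CC and -0.18 in T cell barcodes.

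By list, the medians over WT in CC were 0.17, -0.51 and -0.41 for prememory and resting genes in C, K and CK, and in T cell barcodes they were 0.02, -0.40 and -0.12. The median in CK turned to 0.033 with each cell thinned to 2000 UMIs and to 0.0063 relative to T cell barcodes, and it was -0.11 without doublets. S phase medians were -0.0015, 0.37 and 0.53 in CC and -0.33, -0.39 and 0.23 in T cell barcodes. For G2M genes in CK the median was 0.48 in CC, with 4 of 16 tested genes at least 2-fold higher, and 0.90 in T cell barcodes. The annotation holds almost no cell with 2500 or more genes, and with such cells added by their nearest annotated neighbours the S phase medians were -0.46 in K and -0.26 in CK. This added 53 CC to WT, 20 to C, 18 to K and 8 to CK. Voted on in the same way, annotated cells below 2500 genes kept their own label in 91.8% of transitioning cells, 88.1% of CB and 85.6% of CC. The share was 59.0% in early CB, 45.8% in prememory and 9.88% in recycling cells, so the added labels are uncertain.

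Genes with all mutant libraries on 1 side of WT were ranked by their smallest ratio. Among the 8 highest were H2afz, the histone variant H2A.Z, at 423, 553, 577 and 673 CPM, with log2 ratios of 0.39 (0.25 to 0.52), 0.45 (0.32 to 0.57) and 0.67 (0.55 to 0.79) for C, K and CK over WT and of 0.21, 0.02 and 0.52 in T cell barcodes. Ighg1, the IgG1 constant region, was at 109, 196, 193 and 163 CPM in CC, with ratios of 0.85 (0.60 to 1.10), 0.82 (0.58 to 1.07) and 0.58 (0.34 to 0.83). The other 6 were Atp5g3, H2afj, Egln2, Pdcd5, Ranbp1 and Mrpl28. Their ratios in CC did not exceed 0.57.

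Among the 8 lowest, Aldh2, the mitochondrial aldehyde dehydrogenase, was at 304, 236, 231 and 182 CPM, with ratios of -0.36 (-0.55 to -0.18), -0.39 (-0.56 to -0.22) and -0.74 (-0.92 to -0.57) and of -0.09, 0.21 and -0.12 in T cell barcodes. Sorl1, a sorting receptor, was at 153, 105, 88.7 and 104 CPM, with ratios of -0.55 (-0.82 to -0.28), -0.79 (-1.05 to -0.53) and -0.56 (-0.80 to -0.31) against -0.32, -0.53 and -0.14 in T cell barcodes. Setd2, the methyltransferase of H3K36, was at 136, 101, 43.9 and 103 CPM, and K lay farthest from WT in CC (-1.63) and in T cell barcodes (-1.06). Gm47283 lay farthest from WT in C and CK, with ratios of -1.74 (-2.10 to -1.38), -1.32 (-1.61 to -1.03) and -2.18 (-2.54 to -1.83), and -1.97, -1.72 and -2.19 in T cell barcodes, so the T cell barcodes differed from WT at least as much. Wdr1, Cnot6l, Hcls1 and A530032D15Rik completed the 8.

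**Figure D5:**
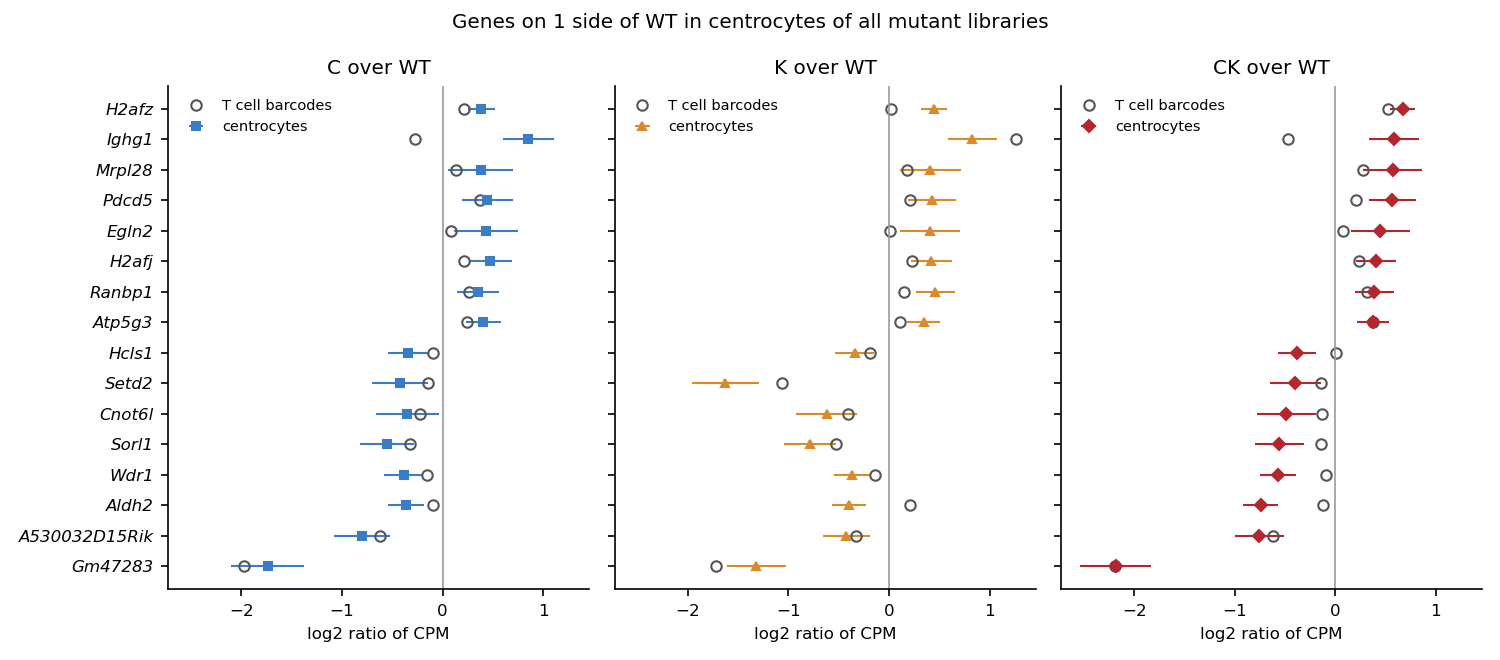
Log2 ratio of CPM over WT (x axes) for the 16 named genes with all mutant libraries on 1 side of WT, in CC (filled, with exact 95% counting intervals) and in T cell barcodes (open circles). Gm47283 lies at the far left in both cell types in C and CK, while in K Setd2 lies farther left in CC, and Aldh2 is lower in CC than in T cell barcodes in each panel.

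The targeted genes were read from 3′ ends, which do not check the floxed alleles. Crebbp was at 61.8, 41.4, 38.4 and 33.6 CPM in CC, from 113, 78, 96 and 91 UMIs, with ratios of -0.58 (-1.01 to -0.15), -0.69 (-1.10 to -0.28) and -0.88 (-1.29 to -0.47) for C, K and CK over WT. Kmt2d was at 16.4, 27.6, 16.0 and 17.0 CPM from 30, 52, 40 and 46 UMIs, with ratios of 0.75 (0.08 to 1.45), -0.04 (-0.76 to 0.70) and 0.05 (-0.64 to 0.76), so that a difference of K or CK from WT was not detectable at this depth. Crebbp was thus lower than WT also in the library labelled K, in which T cell barcodes had a ratio of -0.68.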

How the data were processed

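Splenic B220+IgD- cells of 4 libraries were analysed from the deposited files. The authors counted UMIs with Cell Ranger (3.0 in the submitters' notes, 3.0.2 in the file header) against mm10, and the matrices hold raw counts for 31053 genes per barcode. The deposited cell table, made by the authors in Seurat 4.0, gives the percent of mitochondrial UMIs, subtype names transferred from earlier data, counts by splice class, cluster numbers, a module score per list (the mean of the list minus that of control genes) and a pseudotime rank from slingshot 2.4.0. The highest rank in each mutant library equals its number of cells plus that of WT, so ranks were not on 1 scale over libraries and only the order within a library was used. All 9804 annotated cells matched a barcode.

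Within each library, the UMIs of a subtype were added up and expressed as CPM in Python 3.11.15 (numpy 2.4.6, scipy 1.17.1, pandas 2.3.3). Doublets were called with Scrublet in scanpy 1.11.5 and kept. Genes with at least 20 UMIs over both groups were compared, and a group at 0 was set at 3 UMIs. Intervals were exact Poisson for levels and exact conditional binomial for ratios. With 1 mouse per genotype no test was run. T cell barcodes held at least 3 UMIs of 5 T cell genes and at most 1 of 4 B cell genes. The steps were checked on simulated counts.

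Members and lists were chosen with earlier results of these data known, and the sterol and ribosome biogenesis lists and the use of T cell barcodes after the data were seen. Named genes were 25 fixed ones, the 10 highest and lowest (5 for transitioning cells) of each contrast with at least 50 CPM, 15 leading genes, 8 highest and 8 lowest over WT with at least 100 CPM, and list members. Alternatives covered doublets, depth, scaling, the gene limit of 2500, filters, folds, rank splits and each library left out. Closely related gene copies and antisense genes are uncertain.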

Additional observations from a re-analysis of the deposited data

Results flagged for a closer look

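For 5 genes, the same ratio lay on opposite sides of 0 in different libraries, each with a 95% counting interval that left out 0. The differences between libraries were not tested, and with 1 mouse per genotype the genotype cannot be told apart from the library. Il4i1, the gene with the highest ratio over CB, was higher in late than in early CC in WT (0.31, log2) and lower in C (-0.91) and CK (-0.21). Slfn2, higher in CC than in CB in each library, was lower in late CC in K (-0.66) and higher in CK (0.43). Rgs13, a regulator of chemokine receptor signalling in GC B cells, was lower in CC than in CB in WT (-0.23) and K (-0.12) and higher in CK (0.29). Ighg1 was higher in CC than in transitioning cells in C (0.21) and lower in K (-0.44) and CK (-0.19). Ncl, a nucleolar protein of ribosome biogenesis, was lower in CC than in transitioning cells in C (-0.28) and higher in K (0.11).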

How the results depend on the processing

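Under the alternatives, 129 values of the main counts and shares stayed within 1.5 times, or within the interval of the share, and 68 did not. For named genes and lists, 2725 values stayed within the spread between libraries or the counting interval, 491 moved beyond it, and 15 changed sign. A change of sign was counted only for list medians clear of 0 and for genes past the fold limit of their contrast. Genes with smaller ratios that changed sign are not among the 15. With 100 UMIs as the minimum, 60 genes were higher and 185 lower in CC than in CB, 113 and 201 against transitioning cells, 118 and 93 against prememory cells, and 22 and 109 in late CC. With 1.5-fold, the counts were 429 and 699 over CB and 473 and 539 over prememory cells, and 8 genes led in CC. With 2-fold they were 86 and 133 over transitioning cells and 19 and 68 in late CC. With no minimum, 466 were higher than in transitioning cells, 974 lower than in prememory cells and 305 higher in late CC. With each cell thinned to 2000 UMIs, which left out 12 (WT) to 161 (CK) CC, the counts were 83 and 223 over CB, 137 higher over transitioning, 155 lower than prememory, and 43 and 146 in late CC. A split of the rank into 2 groups gave 48 and 144. With cells of 2500 or more genes added, 262 and 545 genes passed over CB and 70 led in CC, and 51 led without immunoglobulin, mitochondrial and ribosomal protein genes in the total. Leaving out each library in turn gave 114 to 138 genes higher and 313 to 424 lower in late CC, and 40 to 59 leading genes, with the highest count without WT. A count over 3 libraries has fewer conditions to meet.

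Over WT, a minimum of 100 UMIs gave 1 higher and 1 lower in C, 7 and 235 in K, and 11 and 4 in CK, and no minimum gave 1011 and 1259, 944 and 2269, and 1110 and 1630. At 1.5-fold they were 466 and 475, 382 and 1876, and 612 and 483. CC of 2500 to 4500 UMIs gave 170 higher in C and 357 in CK. Relative to T cell barcodes, 164 were higher in C, and 209 higher and 129 lower in K. K had 57 higher with the added cells and 155 with median-ratio scaling. The share of CC among annotated cells, 31.1, 25.2, 23.7 and 23.7% in WT, C, K and CK, was 20.5, 19.6, 18.5 and 20.3% with the added cells and 6.59, 6.14, 8.88 and 8.79% over all barcodes below 8% mitochondrial UMIs. The cause was not tested.

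List medians that turned were those of T cell markers over CB with added cells (-0.60), of positive selection in C in the UMI window (0.15), and, in K, of immediate early genes with added cells (-0.070) and in the window (-0.020), of T cell help (0.15) and dark zone genes (0.051) relative to T cell barcodes, and of S phase genes with added cells (-0.46). In CK they were those of S phase genes with added cells (-0.26), G2M genes in the window (-0.034) and relative to T cell barcodes (-0.22), and prememory genes thinned (0.033) and relative to T cell barcodes (0.0063). Gm47283 turned relative to T cell barcodes, at 0.24 in C, 0.40 in K and 0.013 in CK. No paired analysis was possible because each group had 1 sample. Late and early CC could not be compared with added cells, which have no rank.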

Other observations

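For light zone genes, the module scores in the deposited cell table placed CC between other subtypes. The mean score over cells for light zone genes was 0.024, 0.020, 0.017 and 0.019 in CC of WT, C, K and CK, and it was higher in prememory cells of each library, at 0.074, 0.071, 0.063 and 0.068. The mean score for genes high in MYC-positive GC B cells was 0.034, 0.035, 0.056 and 0.051 in early CC by pseudotime rank and -0.004, -0.012, 0.003 and -0.002 in late CC. Early CC were higher than late CC in each library, as they were for Myc itself. Prememory cells had higher means still for this score, at 0.110, 0.114, 0.101 and 0.108. Over all CC the mean was 0.011, 0.0086, 0.024 and 0.020. This was below CB, transitioning and prememory cells in WT, C and CK, and above CB in K.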
